A study of Mus musculus with 6 samples.

Results

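The genes described are 10 components of the Hippo pathway and its Tead transcription factors: the coactivators Yap1 and Wwtr1, the DNA-binding factors Tead1, Tead2, Tead3 and Tead4, the kinases Lats1 and Lats2, and the regulators Amotl2 and Ajuba. They were chosen by name, with earlier results of these data known. All 10 had a probe set with a single gene symbol, 21 probe sets in all out of 45101 on the array, and the brightest probe set of each gene, by its average across the 6 arrays, represents it. All 10 passed the filter on dim probe sets, as did 15027 genes in the whole series. Transcripts were measured by Affymetrix array in cells sorted from breast tumours of 3 mice of the transgenic MMTV-Wnt-1 line, which expresses Wnt1 in the mammary gland under the promoter of mouse mammary tumour virus. From each mouse, a CD24+, Thy+ and CD45- gate, labelled tumorigenic, was set against cells labelled nontumorigenic, whose label negates that gate and does not settle whether CD45-positive cells were included. Every cell population therefore carried the transgene, and both populations of a mouse came from the same animal. The labels give neither the age of the mice nor a background strain or treatment.

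The Hippo pathway is a kinase relay that restrains tissue growth and responds to cell contact and to mechanical tension. Mst kinases activate Lats1 and Lats2, which phosphorylate the coactivators Yap1 and Wwtr1 (also called TAZ) and keep them in the cytoplasm or mark them for degradation. When the relay is idle, the coactivators enter the nucleus and bind Tead factors, since they have no DNA-binding domain of their own. In the mammary gland the coactivators are linked to the basal state and, in human breast cancer cells, TAZ has been linked to stem cell traits. Much of this control acts on protein phosphorylation and location, which a transcript array does not measure.

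Tead factors recognise the motif GGAATG, or CATTCC on the other strand, and several genes of the pathway are themselves Tead targets. Promoter windows of RefSeq (GRCm38.p6, from 250 bases before to 50 after a gene's start) were at hand for 8 of the 10 genes, all but Tead1 and Tead4, and 6 of these 8 held the motif on at least 1 strand, against 16.6% of the 27025 genes with a window. The 6 were Yap1, Wwtr1, Tead3, Lats2, Amotl2 and Ajuba. The windows of Tead2 and Lats1 held none. Genes with several starts had more than 1 window: over windows the counts were 8 of 12, against 14.7% of all 32851. Windows of a gene can overlap and are not separate observations: both windows of Wwtr1 held the same site. The motif of Lats2 lay after the start. Of the 12 Yap/Taz target genes (described below) with a window, 4 held the motif. Stretches before the start are printed in lower case for the 2 coactivators and the 2 regulators, whose array values follow, and for the known target Ccn1, each read 5′ to 3′ on the gene's own strand with the motif in capitals. They lie at chr9:8004702-8004767 (minus strand) for Yap1, chr3:57576011-57576076 (minus) for Wwtr1, chr9:102717709-102717774 (plus) for Amotl2, chr14:54577790-54577877 (minus) for Ajuba and chr3:145650053-145650118 (minus) for Ccn1.
Yap1: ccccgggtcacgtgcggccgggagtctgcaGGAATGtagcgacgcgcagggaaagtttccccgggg
Wwtr1: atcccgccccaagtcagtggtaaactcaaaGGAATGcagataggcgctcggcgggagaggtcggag
Amotl2: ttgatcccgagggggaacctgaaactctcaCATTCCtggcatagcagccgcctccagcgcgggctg
Ajuba: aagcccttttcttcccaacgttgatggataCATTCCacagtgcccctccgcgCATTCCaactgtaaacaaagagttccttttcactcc
Ccn1: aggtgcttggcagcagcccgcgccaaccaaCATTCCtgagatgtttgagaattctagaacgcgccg
The motif begins 141 bases before the annotated start in Yap1, 65 in Amotl2 and 103 in Ccn1, and Ajuba holds it at 2 places. The match of these letters is a description of sequence, and no factor binding was measured.

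Before the results, the sorted populations were set against their labels. Ptprc, which encodes CD45, read 10.21, 7.76 and 3.82 for mice 1, 2 and 3 on the arrays labelled tumorigenic, against 2.34, 3.59 and 2.51 on those labelled nontumorigenic, all as log2 RMA levels, so the library labels are kept as labels throughout. Cd24a, which encodes the CD24 of the gate, read 11.85, 12.34 and 12.84, against 12.86, 12.84 and 12.99, a log2 difference of -0.55 (limma adjusted p = 0.635), negative although the gate labelled tumorigenic is CD24+. Thy1 read 10.83, 10.51 and 9.33, against 10.25, 9.67 and 10.04, with overlapping ranges and a log2 difference of 0.24 (limma adjusted p = 0.898). All 10 macrophage and leukocyte markers had positive differences, and their summed linear level ranged from 802 to 23334 in the arrays labelled tumorigenic, against 164.5 to 232.9 in those labelled nontumorigenic. All 10 endothelial markers were positive too (summed level 1789 to 3161, against 619 to 1074), and all 10 luminal epithelial markers were negative (1321 to 7939, against 11691 to 13494). Basal epithelial markers summed to 13890 to 21981, against 11886 to 14895, with the tumorigenic array of mouse 3 alone above the others. Fibroblast and pericyte markers summed to 13178 to 29540, against 20329 to 23420, and the 4 adipocyte markers tested to 228.6 to 2250, against 55.9 to 77.2. RMA gives every probe set a positive level, so no marker is at 0. The tumorigenic array of mouse 2 stood apart in a control: its Gapdh signal was 6.60 log2 units higher at the 3′ than at the 5′ end, against 2.41 to 3.81 on the other 5 arrays. With arrays there is no read depth to give, and the precision is limited by the number of arrays, 3 against 3.

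Over the 3 mice, none of the 10 genes passed the test, and no gene of the series did either. The 95% intervals of the members' log2 differences reach from -1.19 to 1.42, so levels are not shown to be alike. Arrays labelled tumorigenic were set against those labelled nontumorigenic by limma, a moderated linear model, fitted to all 15027 genes with p-values adjusted over all of them. Of all genes 0 (0%) had an adjusted p below 0.05, and 1277 (8.5%) had an unadjusted p below 0.05, 5.23% higher and 3.27% lower under the tumorigenic label. Among the 10 members, the count was 0 by adjusted p and 1 by unadjusted p, namely Lats2. Their log2 differences (tumorigenic minus nontumorigenic) ran from -0.495 for Amotl2 to 0.536 for Lats2, with 5 positive and 5 negative, where 50.7% of all genes were positive. The median was -0.00089, against 0.0051 over all genes tested, and the median size regardless of sign was 0.182, against 0.233 over all genes. Sorted bulk samples cannot tell fewer cells of a type from less RNA per cell, and this holds for every value below.

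**Figure D1:**
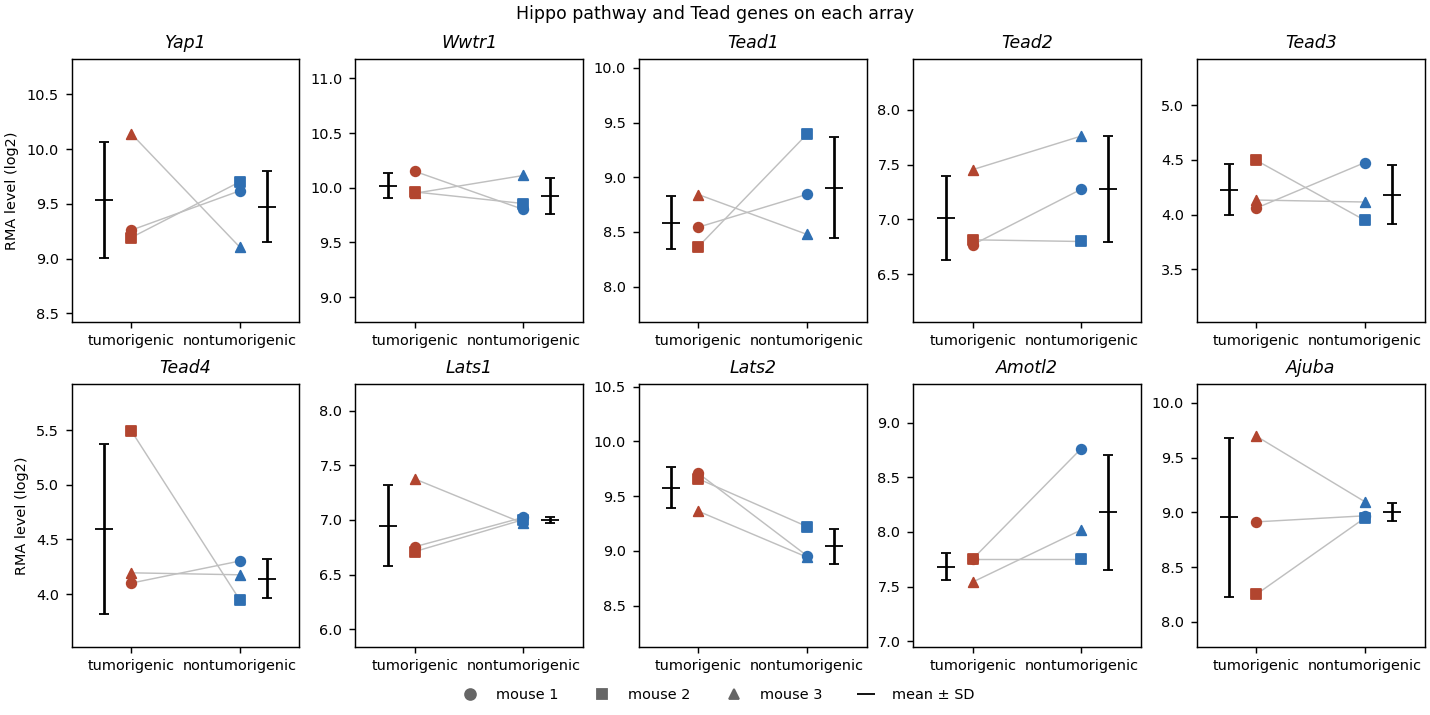
RMA levels (log2) of the 10 genes on each array, tumorigenic at left and nontumorigenic at right in every panel. Symbols mark mice 1 to 3, grey lines join the populations of a mouse, bars give mean ± SD (n = 3 each), and every panel spans the same log2 range. The populations overlap or touch in 9 panels and are apart in that of Lats2.

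The coactivators come first. Yap1 read 9.26, 9.19 and 10.14 for mice 1 to 3 on the arrays labelled tumorigenic, against 9.62, 9.70 and 9.11 on those labelled nontumorigenic. The populations overlapped, and mouse 3 ran opposite to the others: its tumorigenic array was the highest of all 6 and its nontumorigenic array the lowest. The tumorigenic mean was 9.53 ± 0.53 and the nontumorigenic one 9.48 ± 0.32 (SD, n = 3 each), which differ by 0.056 on the log2 scale (95% interval -0.72 to 0.83; limma adjusted p = 0.973). Within mice 1, 2 and 3 the differences were -0.36, -0.51 and 1.04. Without the tumorigenic array of mouse 3 the Yap1 difference was -0.25, without the nontumorigenic array of mouse 3 it was -0.13, and the mean of both Yap1 probe sets gave -0.054. The second probe set of Yap1 had a difference of -0.16.

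Wwtr1, the paralogue of Yap1, varied less. It read 10.15, 9.96 and 9.95 in the arrays labelled tumorigenic and 9.80, 9.86 and 10.11 in those labelled nontumorigenic, with overlapping ranges. The tumorigenic mean was 10.02 ± 0.11 and the nontumorigenic one 9.92 ± 0.17 (SD, n = 3 each). The log2 difference of 0.097 (95% interval -0.30 to 0.50; limma adjusted p = 0.893) had the narrowest interval of the 10 genes. It was 0.032 without the tumorigenic and 0.036 without the nontumorigenic array of mouse 1, and 0.19 without the nontumorigenic array of mouse 3. Its other 2 probe sets gave 0.16 and -0.075. Both of these were highest in the tumorigenic array of mouse 2, at 7.48 and 7.37, the array with the 3′ to 5′ gap in Gapdh, whose part in these values was not tested.

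The Tead factors carry the coactivators to DNA. Tead1 read 8.54, 8.37 and 8.84 in the arrays labelled tumorigenic, against 8.84, 9.39 and 8.48 in those labelled nontumorigenic. Its differences in mice 1 to 3 were -0.30, -1.03 and 0.36, so mouse 3 again had the opposite sign to mice 1 and 2. The log2 difference of the means was -0.32 (95% interval -0.998 to 0.36; limma adjusted p = 0.780). The second Tead1 probe set gave 0.20, and it was highest, at 9.01, in the tumorigenic array of mouse 3. The probe sets of Tead1 thus differed in sign, and their mean gave -0.062. Without the nontumorigenic array of mouse 2 the Tead1 difference was -0.077, without that of mouse 3 it was -0.53, and without the tumorigenic array of mouse 2 it was -0.21.

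Tead2 read 6.77, 6.81 and 7.45 in the arrays labelled tumorigenic and 7.28, 6.80 and 7.76 in those labelled nontumorigenic. Mouse 3 had the highest value within each population, and the populations overlapped. The log2 difference was -0.27 (95% interval -1.04 to 0.51; limma adjusted p = 0.841), with -0.51, 0.015 and -0.31 in mice 1 to 3. Without the nontumorigenic array of mouse 3 the Tead2 difference was -0.025, and without that of mouse 2 it was -0.51. Leaving out the tumorigenic array of mouse 1, 2 or 3 gave -0.14, -0.17 or -0.49. Tead2 has 1 probe set here.

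Tead3 and Tead4 averaged 4.20 and 4.37 over the 6 arrays, about the array medians of 4.36 to 4.40 and above the filter at 2.98. Tead3 read 4.06, 4.50 and 4.13 in the arrays labelled tumorigenic and 4.48, 3.95 and 4.12 in those labelled nontumorigenic, a log2 difference of 0.050 (95% interval -0.47 to 0.57; limma adjusted p = 0.963). Its sign depended on single arrays: the difference was -0.083 without the tumorigenic array and -0.066 without the nontumorigenic array of mouse 2. Tead4 read 4.10, 5.49 and 4.19 in the arrays labelled tumorigenic, against 4.30, 3.95 and 4.18 in those labelled nontumorigenic. A single array, that of tumorigenic mouse 2, lay above the rest. The log2 difference of Tead4 was 0.45 (95% interval -0.51 to 1.42; limma adjusted p = 0.781), and without that array it was 0.0054. That array is also the one with the 3′ to 5′ gap in Gapdh and the highest adipocyte and endothelial marker levels. Their part in the Tead4 value was not tested. The other Tead4 probe set failed the filter on dim values and had a difference of -0.30.

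The Lats kinases phosphorylate the coactivators. Lats1 read 6.75, 6.71 and 7.37 in the arrays labelled tumorigenic and 7.02, 7.003 and 6.97 in those labelled nontumorigenic. The nontumorigenic arrays lay close together, and the tumorigenic ones lay on both sides of them, that of mouse 3 above. The tumorigenic mean was 6.95 ± 0.37 and the nontumorigenic one 6.998 ± 0.028 (SD, n = 3 each). They differed by -0.052 on the log2 scale (95% interval -0.59 to 0.49; limma adjusted p = 0.963). It was 0.044 without the tumorigenic array of mouse 1 and 0.066 without that of mouse 2.

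Lats2 was the member with separate ranges. It read 9.71, 9.66 and 9.36 in the arrays labelled tumorigenic and 8.96, 9.22 and 8.94 in those labelled nontumorigenic, so that every tumorigenic array lay above every nontumorigenic one. Ranges did not overlap, in that direction, in 6.9% of all genes tested, and 1 of 10 members is a share near that background. The tumorigenic mean was 9.58 ± 0.19 and the nontumorigenic one 9.04 ± 0.16 (SD, n = 3 each), a 1.45-fold difference, or 0.54 on the log2 scale (SE 0.18; 95% interval 0.10 to 0.97). The unadjusted limma p was 0.0229 and the adjusted p 0.522, so Lats2 did not pass. In mice 1, 2 and 3 the differences were 0.75, 0.44 and 0.42. Lats2 was the only member with the same sign in all 3 mice, against 30.2% of all genes tested.

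The size of the Lats2 difference varied with the probe set. The representing probe set carries the suffix by which Affymetrix marks probes that may match other transcripts as well. The next brightest Lats2 probe set, without that suffix, read 8.98, 8.74 and 8.36 in the arrays labelled tumorigenic and 8.41, 8.57 and 8.40 in those labelled nontumorigenic. Its difference was 0.23, and there the populations overlapped. The other 3 probe sets of Lats2 that passed the filter gave 0.87, 0.26 and 0.14, so all 5 were positive, and the one that failed it gave -0.35. With the mean of the Lats2 probe sets the difference was 0.41 (limma adjusted p = 0.667), and without the tumorigenic array of mouse 3 it was 0.64 (limma adjusted p = 0.211). Among the arrays labelled tumorigenic, Lats2 had the same order as the macrophage and leukocyte markers, whose mean log2 levels were 10.70, 9.20 and 5.67, against 3.86, 3.999 and 4.20 in those labelled nontumorigenic. Fibroblast and pericyte markers had that order too, averaging 10.87, 10.69 and 9.22, against 9.95, 10.55 and 10.19. Endothelial markers averaged 7.40, 7.86 and 7.13, against 6.31, 5.61 and 5.73. The part of these cells in the Lats2 value was not tested.

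**Figure D2:**
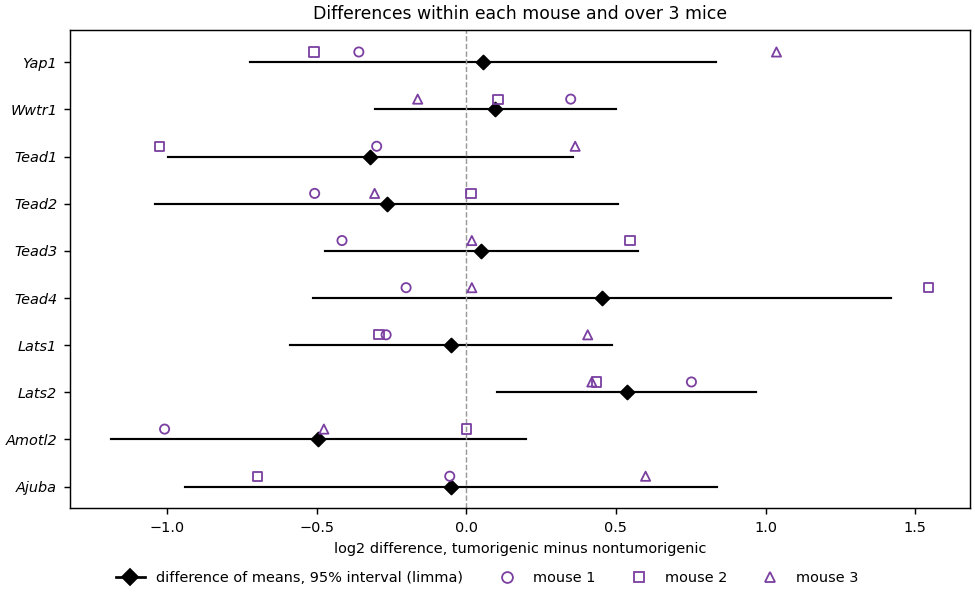
Log2 difference, tumorigenic minus nontumorigenic, of each gene: black diamonds with bars give limma's difference of means and its 95% interval, open symbols the difference within mouse 1, 2 or 3. The interval of Lats2 runs from 0.10 to 0.97 and the other 9 cross 0, while Yap1, Tead1, Lats1 and Ajuba have their highest value in mouse 3.

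Amotl2, of the angiomotin family, binds the coactivators at junctions and is itself a Yap target. It read 7.75, 7.75 and 7.54 in the arrays labelled tumorigenic and 8.76, 7.75 and 8.02 in those labelled nontumorigenic. No tumorigenic array exceeded any nontumorigenic one, but 3 arrays shared exactly the same value, that of both populations of mouse 2 and of tumorigenic mouse 1. Such shared values occurred in 24.4% of all genes tested. The tumorigenic mean was 7.68 ± 0.12 and the nontumorigenic one 8.18 ± 0.52 (SD, n = 3 each). They differed by -0.50 on the log2 scale (95% interval -1.19 to 0.20; limma adjusted p = 0.681). In mice 1 and 3 it was -1.01 and -0.48. Without the nontumorigenic array of mouse 1 the difference was -0.20. Amotl2 has 1 probe set here.

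Ajuba, a LIM-domain protein of cell junctions, can hold Lats kinases inactive. It read 8.91, 8.25 and 9.70 in the arrays labelled tumorigenic and 8.97, 8.95 and 9.10 in those labelled nontumorigenic. As with Lats1, the nontumorigenic arrays lay close together and the tumorigenic ones on both sides, the array of mouse 2 lowest and that of mouse 3 highest of all 6. The tumorigenic mean was 8.95 ± 0.72 and the nontumorigenic one 9.004 ± 0.080 (SD, n = 3 each). They differed by -0.052 on the log2 scale (95% interval -0.94 to 0.84; limma adjusted p = 0.978). Without the tumorigenic array of mouse 2 it was 0.30.

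Yap1, Ajuba, Lats1 and Tead1 were thus higher in the population labelled tumorigenic in mouse 3 alone. In that mouse Yap1 differed by 1.04, Ajuba by 0.60, Lats1 by 0.41 and Tead1 by 0.36, while all 4 had negative differences in mice 1 and 2. The tumorigenic array of mouse 3 was the highest of the 6 arrays for 3 of the 10 members (Yap1, Lats1 and Ajuba), against 16.4% of all genes tested. The second probe sets of Yap1 and Lats1 were highest elsewhere, at 6.73 in nontumorigenic mouse 1 and 3.65 in nontumorigenic mouse 2. Within mouse 3 they read 6.24 and 3.36 on the tumorigenic array, against 5.97 and 3.35 on the nontumorigenic one. In mice 1 and 2 both were lower on the tumorigenic array. That of Lats1 averaged 3.37 over the 6 arrays, below the array medians of 4.36 to 4.40. The tumorigenic array of mouse 3 also had the highest mean of the basal epithelial markers, 10.59, against 9.44 and 9.64 in the other arrays labelled tumorigenic and 9.63, 9.71 and 9.21 in those labelled nontumorigenic. Among these markers, the keratin Krt5 read 8.78, 9.32 and 10.65 in the arrays labelled tumorigenic and 9.35, 9.27 and 9.55 in those labelled nontumorigenic. Some other basal markers of the list were highest in an array labelled nontumorigenic. The array of mouse 3 was also the tumorigenic array with the lowest macrophage and leukocyte mean. Its fibroblast and pericyte mean, 9.22, was the lowest of all 6, against 10.87 and 10.69 in the other arrays labelled tumorigenic and 9.95, 10.55 and 10.19 in those labelled nontumorigenic. Yap1, Ajuba, Lats1 and Tead1 were singled out after their values were seen, and the part of basal, leukocyte or fibroblast content was not tested. Over the members, the spread between mice was larger in the arrays labelled tumorigenic for 5 of 10, against 54.6% of all genes.

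**Figure D3:**
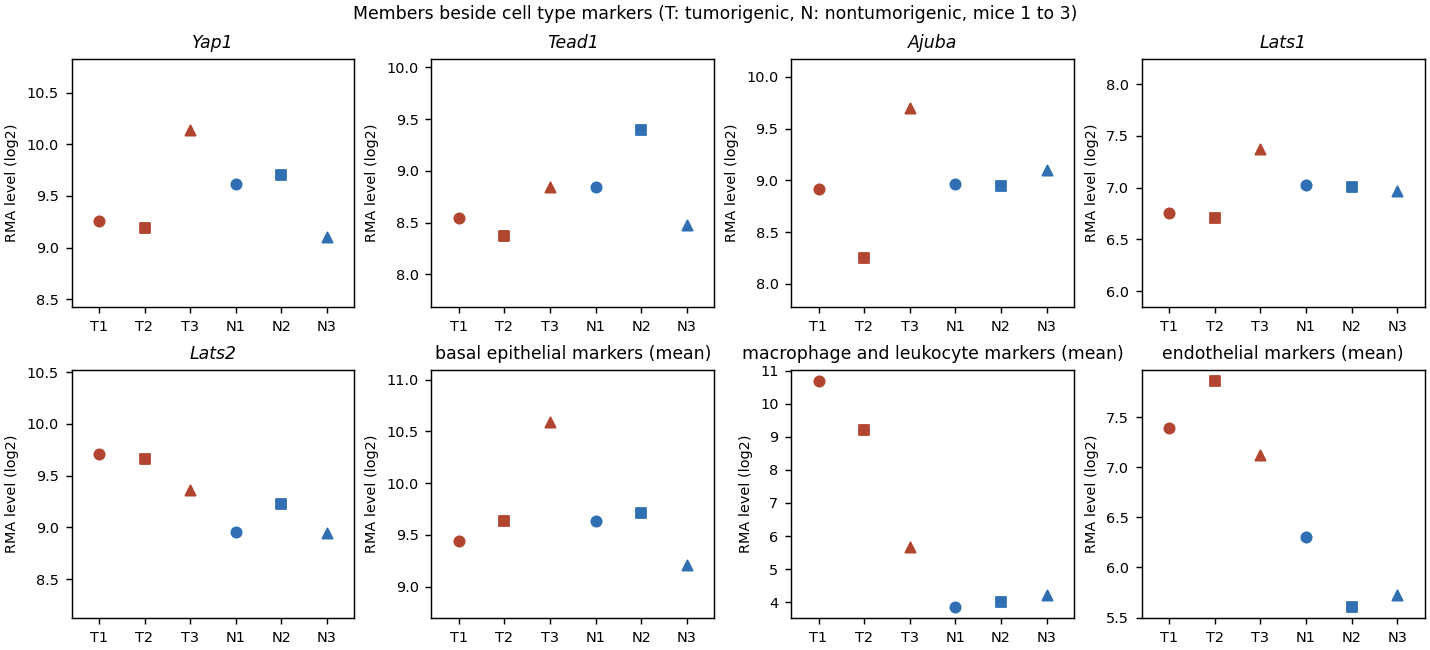
RMA levels (log2) of 5 members and mean log2 levels of 3 marker lists on each array, T for tumorigenic and N for nontumorigenic, mice 1 to 3; the vertical scales of the macrophage and leukocyte panel and of the endothelial panel differ from the rest. Array T3 is highest for Yap1, Ajuba, Lats1 and the basal markers, and T1 to T3 lie above N1 to N3 for Lats2 and for the endothelial and leukocyte markers. The panels are a selection: Wwtr1, Tead2, Tead3, Tead4 and Amotl2 are not drawn, nor are the fibroblast, luminal and adipocyte lists.

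Kinases of the relay and genes grouped with them were read from a list of 15, of which 12 were tested. Besides kinases upstream of Lats, the list holds Sav1, the cofactors Mob1a and Mob1b, and the kinases Stk38 and Stk38l. Of these 12, 0 passed in either direction with p adjusted over all genes and 0 had an unadjusted p below 0.05, against 8.5% of all genes tested. The differences were positive for 9 and negative for 3, with a median of 0.27 over the list, against 0.0051 over all genes. That median was 0.13 with probe sets averaged and 0.17 without the nontumorigenic array of mouse 1. Within mice 1, 2 and 3 the list medians were 0.43, 0.021 and 0.19. Stk4, an Mst kinase that activates Lats, read 11.14, 10.67 and 10.62 in the arrays labelled tumorigenic and 10.67, 10.05 and 10.13 in those labelled nontumorigenic, which differ by 0.53 on the log2 scale (limma SE 0.25, adjusted p = 0.630), while its other probe sets gave -0.050 and -0.094. The Lats cofactors ran in opposite directions: Mob1a had a difference of 0.42, with -0.062 and 0.048 on its other probe sets, and Mob1b had -0.63, with 0.046 on its other one. Taok1, a kinase that acts on Mst, had -0.37 with separate ranges, lower in the arrays labelled tumorigenic, against 5.59% of all genes, and its other 5 probe sets that passed the filter were negative as well.

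Junction and scaffold proteins, which assemble the relay at the membrane, were read from a list of 21, of which 20 were tested. Of these 20, 0 passed with p adjusted over all genes and 1 had an unadjusted p below 0.05, against 8.5% of all genes tested, with 12 positive and 8 negative differences. Their median was 0.094, but 0.0071 with probe sets averaged, and 0.038 without the tumorigenic, 0.055 without the nontumorigenic array of mouse 3 and 0.16 without the nontumorigenic array of mouse 2. Within mice 1, 2 and 3 the list medians were -0.084, -0.0041 and -0.026. Amotl1, a relative of Amotl2, read 7.77, 7.48 and 7.76 in the arrays labelled tumorigenic and 7.32, 7.26 and 6.91 in those labelled nontumorigenic, with separate ranges and a difference of 0.51 on the log2 scale (limma SE 0.19, adjusted p = 0.546). Its other probe sets gave 0.67 and 0.10. Nf2, the tumour suppressor Merlin, which brings Lats to the membrane, read 6.41, 6.45 and 6.73, against 6.34, 6.06 and 6.08, a difference of 0.37 (limma SE 0.17, adjusted p = 0.631), and 1 of its other 3 probe sets was negative. Amotl1 and Nf2 were the 2 of 20 with separate ranges, both higher under the tumorigenic label, against 6.9% of all genes tested.

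Wwc1, also called Kibra, a partner of Nf2, had the largest negative difference of that list. It read 7.88, 9.10 and 10.10 in the arrays labelled tumorigenic and 10.27, 10.04 and 10.19 in those labelled nontumorigenic. Its log2 difference was -1.14 (limma SE 0.54, adjusted p = 0.632). Of its other probe sets, 2 passed the filter and gave -1.05 and -1.21. The gap was widest in mouse 1, at -2.39, and it was -0.094 in mouse 3. Luminal epithelial markers averaged 5.84, 7.96 and 7.77 in the arrays labelled tumorigenic, against 9.07, 9.20 and 9.37, and their part in the Wwc1 value was not tested. The Ras-association protein Rassf2 averaged 4.13 over the 6 arrays, below the array medians of 4.36 to 4.40. It had a difference of 0.64 (limma adjusted p = 0.632), with 1.06, 0.92 and -0.050 in mice 1 to 3. Its other probe set that passed the filter gave 0.28, but in mouse 2 it read 3.64 on the tumorigenic array, against 4.32. The one that failed the filter gave -0.035.

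Vestigial-like proteins compete with Yap for Tead factors or act as their partners. All 4 genes were tested, and 0 passed or had an unadjusted p below 0.05, against 8.5% of all genes for the unadjusted p. Vgll4, a repressor of Tead activity, had a log2 difference of -0.21, Vgll1 -0.082, Vgll3 0.14 and Vgll2 -0.0027. Vgll1 and Vgll2 averaged 3.47 and 3.91 over the 6 arrays, below the array medians of 4.36 to 4.40. Vgll3 varied most between mice, at 2.04, 0.26 and -1.86 in mice 1 to 3.

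Downstream, a list of 19 genes known as Yap/Taz targets, most of them from studies of human cancers, gave 18 tested genes. Of these 18, 0 passed with p adjusted over all genes, and 2 had an unadjusted p below 0.05, 1 in each direction, against 8.5% of all genes tested. The list held 12 positive and 6 negative differences. Its median was 0.25, but 0.16 with probe sets averaged, 0.15 without the nontumorigenic array of mouse 1 and 0.16 without that of mouse 3. By mouse the medians were 0.36, 0.36 and -0.050 in mice 1 to 3. Tgfb2, a growth factor, read 9.49, 9.66 and 9.58 in the arrays labelled tumorigenic, against 10.14, 9.90 and 10.36 in those labelled nontumorigenic. The ranges were separate and differed by -0.55 on the log2 scale (limma SE 0.18, adjusted p = 0.521), and all 4 of its probe sets were negative. Rbms3, an RNA-binding protein, ranged from 9.98 to 10.04 in the arrays labelled tumorigenic and from 9.51 to 9.68 in those labelled nontumorigenic, a difference of 0.44 (limma SE 0.14, adjusted p = 0.522), but 1 of its other 3 probe sets gave -0.32. Igfbp3, which binds insulin-like growth factors, had a difference of 1.03 and the stress gene Gadd45a of -0.57. Of the 18, ranges were separate for 1 higher gene, Rbms3, against 6.9% of all genes tested. They were separate for 2 lower genes, Tgfb2 and Gadd45a, against 5.59% of all genes.

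The classical targets Ccn1, Ccn2 and Ankrd1 were named after their values were seen. Ccn1, whose promoter stretch is printed above, read 12.13, 12.05 and 12.09 in the arrays labelled tumorigenic and 12.16, 12.10 and 12.06 in those labelled nontumorigenic. Its log2 difference was -0.020 (95% interval -0.36 to 0.32; limma adjusted p = 0.977). Ccn2 had a difference of 0.14 (95% interval -0.28 to 0.56; limma adjusted p = 0.842). Ankrd1 read 5.44, 8.44 and 5.89, against 4.25, 5.598 and 5.78, so that its difference of 1.38 (limma SE 0.86, adjusted p = 0.705) was uneven between mice: it was 2.84 in mouse 2, against 1.18 and 0.11 in mice 1 and 3. The array of tumorigenic mouse 2, where it read 8.44, is the one with the 3′ to 5′ gap in Gapdh. It also had the highest adipocyte and endothelial marker levels, and the part of these in the Ankrd1 value was not tested.

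**Figure D4:**
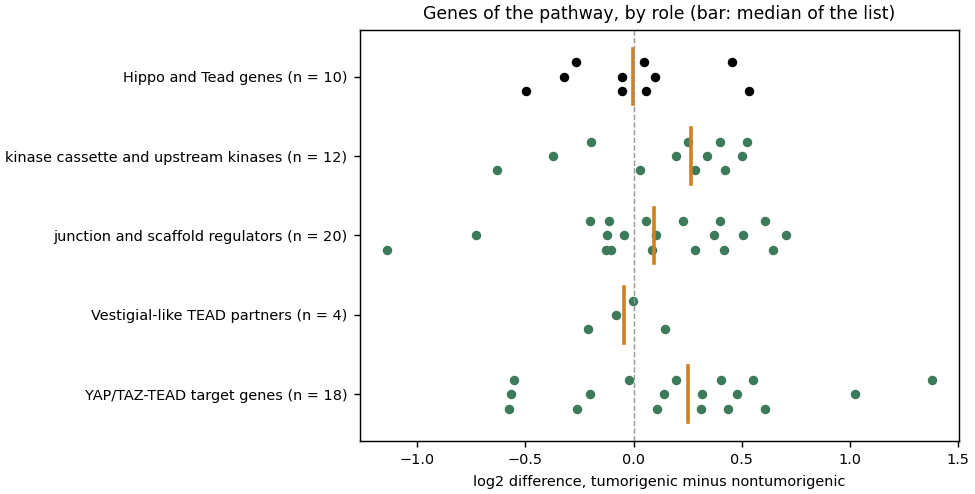
Log2 differences, tumorigenic minus nontumorigenic, of the 10 Hippo and Tead genes and of 4 lists of the same pathway, each point a gene and each bar the median of its list. The medians lie between -0.042 and 0.27, and no gene shown passed the adjusted threshold.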

How the data were processed

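Total RNA of the sorted cells was amplified and labelled as biotinylated cRNA, per the labels' protocols. The authors deposited 1 log2 value per probe set and array, made by RMA, the robust multichip average, as the submitters' processing notes state. RMA brings the arrays to near-equal distributions of values, which could lessen a shift common to most transcripts. The version of RMA and a genome build are not stated in those notes. The log2 scale is inferred from the range of the values, and array medians were 4.36 to 4.40.

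Of 45101 probe sets, 64 were controls and stayed out of the tests, and 34945 had 1 gene symbol, 932 several and 9160 none. Symbols were matched by Entrez identifier to RefSeq genes of GRCm38.p6 for 34741 probe sets, with 0 changed. Probe sets in the lowest 25% by mean level, below 2.98, were left out. Limma 3.58.1 (lmFit and eBayes, R 4.3.3) compared 3 arrays with 3, with no covariate, two-sided, with Benjamini-Hochberg adjustment over 15027 genes. Other probe sets were fitted over all 33778 that passed the filter. An exact permutation test of 3 against 3 cannot go below 0.1 and was not used. The script was tested on simulated data. Titles give both populations of a mouse the same number, so the numbers pair the arrays. Deviations of same-mouse arrays from their group means correlated across genes at 0.079, 0.136 and 0.086, against -0.083 to -0.010 between different mice. Deviations within a group sum to 0, so these correlations depend on each other. Of each pathway list the 4 genes with the smallest p were named, and of each marker list at most the first 2. A list gene with no probe set of its own symbol, such as Stk3, was not analysed here. The members and lists were chosen with earlier results of these data known. Alternatives were the mouse as a block, other filters, renewed quantile normalisation, median centring, another prior, averaging each gene's probe sets, and leaving out each array.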

Additional observations from a re-analysis of the deposited data

How the results depend on the processing

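Under the 13 alternatives 0 members passed the adjusted threshold, and the lowest limma adjusted p of a member was 0.211, for Lats2. Of 128 values of single members under these alternatives, 8 had another sign. These were Yap1 with its probe sets averaged (-0.054) and without the tumorigenic (-0.25) or nontumorigenic (-0.13) array of mouse 3, Tead3 without the tumorigenic (-0.083) or nontumorigenic (-0.066) array of mouse 2, Lats1 without the tumorigenic array of mouse 1 (0.044) or 2 (0.066), and Ajuba without that of mouse 2 (0.30). With single arrays left out, these ranged from -0.25 to 0.23 for Yap1, from -0.083 to 0.20 for Tead3, from -0.27 to 0.066 for Lats1 and from -0.42 to 0.30 for Ajuba. The other 6 members kept their sign wherever they were tested, but not their size: the ranges were 0.032 to 0.19 for Wwtr1, -0.53 to -0.077 for Tead1 (-0.062 with its probe sets averaged), -0.51 to -0.025 for Tead2, 0.0054 to 0.70 for Tead4, 0.47 to 0.64 for Lats2 and -0.71 to -0.20 for Amotl2. Tead3 and Tead4 were not tested with the lower 50% of probe sets left out. The median difference of the members was -0.257 to 0.038 when single arrays were left out. The number of genes past the threshold was 0, but 1 with no filter on dim probe sets and 1 with each gene's probe sets averaged. Leaving out single arrays gave 0 to 18, the 18 without the tumorigenic array of mouse 3. The median of the junction and scaffold list was 0.0071 with probe sets averaged, and 0.038 to 0.16 when single arrays were left out. That of the kinase list was 0.13 with probe sets averaged and 0.17 to 0.31 with single arrays left out, and that of the target list 0.16 and 0.15 to 0.37. The cause of these shifts was not tested. With the mouse as a replicate block, paired by animal, 0 genes and 0 members passed by limma (lowest adjusted p of a member 0.504, for Lats2), 1435 genes had an unadjusted p below 0.05, and the block changed no call. Median centring moved no array by more than 0.026 log2 units.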
